A study of Mus musculus with 4 samples.

Results

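The association difference of an mRNA is the genotype difference in how much of it lies with ribosomes: the polysome minus total difference under the Npm1+/- label, less the same difference under the Npm1+/+ label, in log2 units. A positive value means that the mRNA lay further toward the polysome array under the heterozygote label. Members were genes with at least 1 probe set (a group of short array probes for a transcript) that carries a single gene symbol. Each gene was read from its brightest probe set over the 4 arrays and was kept if its highest value reached 7.53, the median of all values. This kept 7179 of 12393 named genes, of which 832 had at least 1 array below that floor.

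The series asked how reduced Npm1 dosage alters the mRNAs that ribosomes hold. Mouse embryonic fibroblasts, primary connective-tissue cells grown from embryos, were of strain C57/BJ6 under every label. The 4 groups were total RNA from Npm1+/+ cells, total RNA from Npm1+/- cells, ribosome-bound RNA of a sucrose gradient from Npm1+/+ cells and the same from Npm1+/- cells, with 1 array each. No group had a replicate, so no difference below has a replicate check or a p-value, and a difference between labels is a difference between these libraries. Embryo age, the number of embryos pooled, the passage and the construction of the Npm1 allele are not given in the sources used here.

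In a sucrose gradient, an mRNA that carries many ribosomes sediments further than a free one, so the ratio of polysomal to total RNA is read as its ribosome association. Nucleophosmin, the protein of Npm1, is abundant in the nucleolus, works in ribosome assembly, binds the Arf tumour suppressor and, by the title of the series, affects 2′-O-methylation of ribosomal RNA, the mark set by box C/D small nucleolar ribonucleoproteins. Dyskeratosis congenita, the disorder named there, is a bone marrow failure syndrome otherwise known from mutations in telomerase and H/ACA ribonucleoprotein genes. Ribosomal protein mRNAs form a classic translationally controlled class, because most begin with a C followed by a run of pyrimidines, the 5′ terminal oligopyrimidine (TOP) motif.

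The first 20 bases of the annotated start are printed here for 5 of the ribosomal protein genes that hold this motif and for 2 genes whose probe sets agreed on an association difference, so that the presence of the motif can be set beside their values. The sequences are RefSeq's for GRCm38.p6, 5′ to 3′, and capitals mark a C and the unbroken pyrimidines after it.
Rps6 (chr4:86857348-86857367, minus strand): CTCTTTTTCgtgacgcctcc
Rps18 (chr17:33955646-33955665, minus strand): CTCTCTTCCacaggaggcct
Rpl14 (chr9:120571517-120571536, plus strand): CTTCTCgctgagcgccgcca
Rpl35 (chr2:39005112-39005131, minus strand): CTCTTTCTCTCgaaccaggc
Rpl38 (chr11:114668580-114668599, plus strand): CTTTCCCCgttctcttcggt
Cap1 (chr4:122886057-122886076, minus strand): CTCCCTTggaggcggagccc
Nhp2 (chr11:51619773-51619792, plus strand): ggccgcgtggttcctctatg

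Npm1 itself was read first, because it is the gene the labels name. Its brightest probe set read 11.91 in the wild-type total array, 11.96 in the heterozygote total array, 12.94 in the wild-type polysome array and 12.85 in the heterozygote polysome array. The heterozygote-labelled library was therefore not lower in total RNA, and the association difference was -0.14 at this probe set and -0.01 at the other. Npm1 RNA does not check the genotype labels here, so every direction below is between the library labelled heterozygote and the library labelled wild type. All 15 fibroblast markers on the array reached the floor, and their median lay between 11.02 and 11.98 in the 4 arrays. Markers of other cell types reached the floor in any array less widely. The counts were 10 of 18 for macrophages, 3 of 13 for endothelium, 1 of 12 for epithelium and 3 of 12 for skeletal muscle. They were 5 of 11 for neural cells and 2 of 7 for erythroid cells. Of the 18 macrophage markers, 3 and 4 reached it in the wild-type and heterozygote total arrays, and 8 and 10 in the polysome arrays. Of the 13 endothelial markers, 3 did so in each total array and 1 in each polysome array. The wild-type total array lay farthest from the median of the other 3 in 44.6% of all genes, so it stood apart more often than any other array. Since it enters every association difference, its place is given beside the results. In bulk RNA, fewer cells of a type and less RNA per cell cannot be told apart.

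The genotype labels differed little in ribosome association and more in RNA level. The association difference had a median of -0.07 and an SD of 0.17 over the 7179 genes, with the 1st and 99th percentiles at -0.44 and 0.42. In total RNA the difference between genotype labels had an SD of 0.41 and in polysome RNA 0.35. At 1.5-fold, 980 genes (13.7%) differed between genotype labels in total RNA and 570 (7.94%) in polysome RNA, in either direction, whereas 22 genes (0.306%) did so in association. These were 12 genes (0.167%) with a higher and 10 genes (0.139%) with a lower association difference. No gene reached 2-fold in either direction. At a lower threshold of 0.32 log2 units, 150 genes (2.09%) were higher and 363 (5.06%) lower, 513 in all (7.15%). In all, 4819 genes (67.1%) lay below 0 and 2359 (32.9%) above it. The polysome minus total difference passed 1.5-fold in 374 genes (5.21%) under the wild-type and in 258 (3.59%) under the heterozygote label.

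The balance of higher and lower genes depended on how the arrays were scaled. Among genes past 0.32 the higher ones made up 29.2% as deposited, 38.1% after centring each array on its median, 55.2% after quantile normalisation and 61.0% after subtracting a loess trend. Among genes past 1.5-fold they made up 54.5% as deposited, 60.9% after centring and 73.3% under each of the other scalings. The median of all genes moved from -0.07 to between -0.06 and -0.0037. The count of genes below 0 therefore carries no direction of its own, and gene lists are set against the median of all genes. The deposited values are RMA values, and a change shared by all mRNAs cannot be told from the scaling of the arrays.

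The spread narrowed with signal. In 5 equal bins from the dimmest to the brightest genes, the SD of the association difference was 0.22, 0.18, 0.16, 0.14 and 0.14, and the bins held 14, 6, 1, 0 and 1 of the 22 genes. The genes past 1.5-fold thus lay mostly among dim signals, with Nnt in the middle bin and Kpnb1 in the brightest.

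**Figure D1:**
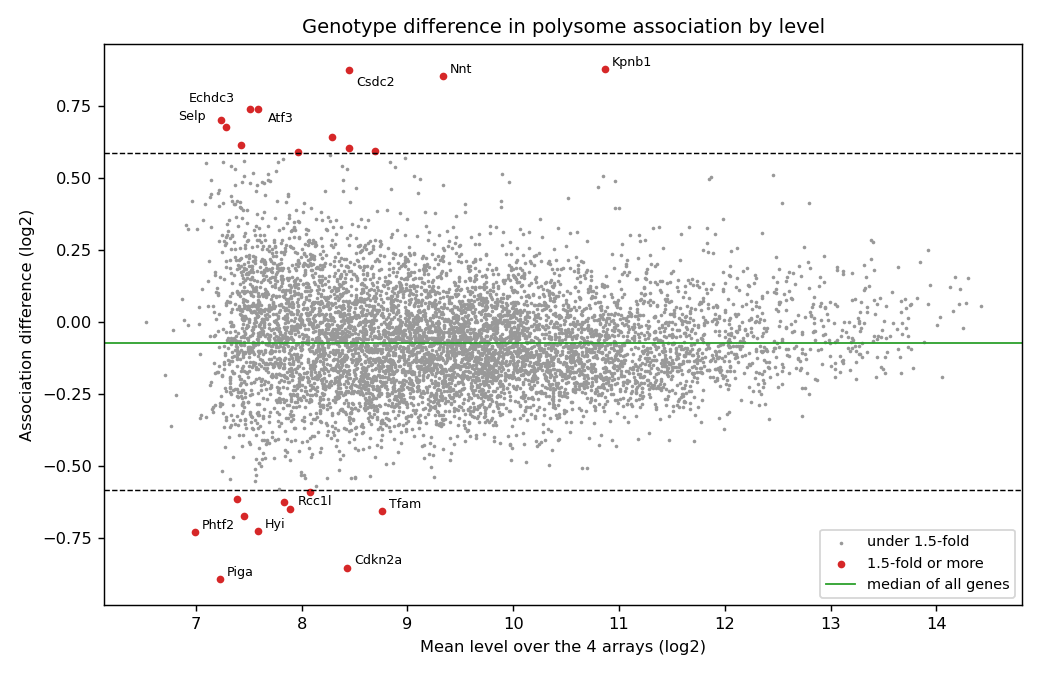
Association difference (log2, vertical axis) against the mean level over the 4 arrays (log2, horizontal axis) for 7179 genes, 1 point per gene. Dashed lines mark 1.5-fold and the green line the median of -0.07; the 22 genes past 1.5-fold (red) sit mostly at low levels and the cloud narrows to the right.

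Of the 12 genes on the higher side, 3 had the largest values: Kpnb1, Csdc2 and Nnt. Kpnb1, which encodes importin beta-1, a carrier of proteins into the nucleus, read 11.43 in the wild-type total array, 10.37 in the heterozygote total array, 10.92 in the wild-type polysome array and 10.74 in the heterozygote polysome array, an association difference of 0.88. Csdc2, a cold shock domain RNA-binding protein gene, read 8.85, 8.06, 8.39 and 8.49 in the same order, also a difference of 0.88. In both genes the wild-type total array was the highest of the 4 and the heterozygote total array the lowest, while the polysome arrays lay between them. The 3 dimmer probe sets of Kpnb1 gave 0.12, 0.08 and 0.10, so the size at the brightest probe set was not met by the others. Those of Csdc2 were below the floor and gave 0.00 and 0.17.

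Nnt, the mitochondrial transhydrogenase that supplies NADPH, read 9.96 in the wild-type total array, 8.45 in the heterozygote total array, 9.79 in the wild-type polysome array and 9.14 in the heterozygote polysome array. Its second probe set read 9.54, 8.35, 9.21 and 8.55. Under the heterozygote label Nnt was lower in both fractions, and less so in the polysome fraction, which gave association differences of 0.85 and 0.53. Of the 4 genes past 1.5-fold with more than 1 probe set at the floor, it was the one whose probe sets all passed 0.32 in the same direction. Nnt is also known as a gene disrupted in one substrain of C57BL/6 mice, and whether the cultures shared a substrain was not tested.

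The regulators of transcription and RNA on the higher side included Atf3, a stress-induced transcription factor. Atf3 read 7.27 and 7.65 in the wild-type and heterozygote total arrays and 7.17 and 8.28 in the polysome arrays, an association difference of 0.74. It was higher under the heterozygote label in both fractions and more so in polysomes, unlike Kpnb1, Csdc2 and Nnt. Creb3l3, a membrane-bound transcription factor best known in liver, read 8.28, 7.78, 7.86 and 7.95 and gave 0.59. Adarb1, which encodes an RNA-editing adenosine deaminase, read 7.64, 7.03, 7.20 and 7.27 and gave 0.68. In both of these the wild-type total array alone stood high, and Adarb1 reached the floor only there. The dimmer probe set of Adarb1, below the floor, gave 0.24.

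The remaining genes on the higher side were enzymes and proteins of other tissues. Echdc3, a protein of the enoyl-CoA hydratase family, read 7.79 and 7.43 in the wild-type and heterozygote total arrays and 7.22 and 7.60 in the polysome arrays, an association difference of 0.74. Selp, the adhesion molecule P-selectin of endothelium and platelets, read 8.29, 7.67, 6.46 and 6.54 and gave 0.70, with both polysome arrays below the floor. Stmn3, a stathmin that destabilises microtubules, read 7.81, 6.77, 7.78 and 7.35 and gave 0.61. Stmn3 was low in the heterozygote total array, whereas Echdc3 and Selp had their highest value in the wild-type total array. Uroc1, the urocanase of histidine breakdown, read 9.38, 8.79, 8.31 and 8.31 and gave 0.59, with polysome arrays that were level. Its other probe set lay below the floor at 0.05, and the mean of its probe sets gave 0.32, under 1.5-fold. The 12 other endothelial markers on the array, Selp left out, had a summed linear signal of 1207 in the wild-type total, 1069 in the heterozygote total, 1322 in the wild-type polysome and 1250.1 in the heterozygote polysome array. The part of such cells in the value of Selp was not tested.

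Ttf1 and Mark1 also passed 1.5-fold, but their other probe sets pointed the opposite way. Ttf1, the terminator of RNA polymerase I transcription, gave 0.64 at its brightest and -0.04 at its second probe set. Mark1, a microtubule affinity-regulating kinase, gave 0.60 and -0.34. No direction is given for either gene.

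Of the 10 genes on the lower side, Piga and Cdkn2a had the largest values. Piga, an enzyme of the glycosylphosphatidylinositol anchor pathway, read 6.39 in the wild-type total array, 7.33 in the heterozygote total array, 7.57 in the wild-type polysome array and 7.62 in the heterozygote polysome array, an association difference of -0.90. Cdkn2a, which encodes the p16 cell cycle inhibitor and the Arf protein that binds nucleophosmin, read 7.71, 8.65, 8.64 and 8.72 in the same order and gave -0.85. For both genes 3 arrays lay close together and the wild-type total array lay below them. Which of the Cdkn2a transcripts its probe set reads was not analysed here. The dimmer probe set of Piga, below the floor, gave -0.55.

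Genes of mitochondria were found on both sides, with Nnt at 0.85 on the higher and Tfam and Rcc1l on the lower. Tfam, which packages and transcribes mitochondrial DNA, read 8.05 and 9.12 in the wild-type and heterozygote total arrays and 8.73 and 9.14 in the polysome arrays, an association difference of -0.66. Rcc1l, a factor in mitochondrial ribosome assembly, read 7.30, 8.14, 7.97 and 8.17 and gave -0.65. Both again had a low wild-type total array, and each was higher under the heterozygote label in both fractions, by 1.07 and 0.85 in total RNA against 0.41 and 0.20 in polysomes.

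The other lower genes did not share a role. Hyi, a hydroxypyruvate isomerase, read 7.66 and 8.32 in the total arrays of wild-type and heterozygote label and 7.22 and 7.14 in the polysome arrays, a difference of -0.73. Tpmt, the thiopurine methyltransferase, read 6.95, 7.69, 7.40 and 7.52 and gave -0.61, with 0.41 at a probe set below the floor. Hyi was high in the heterozygote total array, and Tpmt was low in the wild-type total array. Phtf2 gave -0.73, Tmem51 gave -0.68 and Leng1 gave -0.63, each with its lowest value, below the floor, in the wild-type total array. Phtf2 read 6.35, 7.54, 6.81 and 7.26. Phtf2 and Tpmt thus reached the floor only in the heterozygote total array, where they are high. Tmem242 was the exception, at 8.11, 7.62, 8.83 and 7.75, because it was high in the wild-type polysome array, and it gave -0.59.

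**Figure D2:**
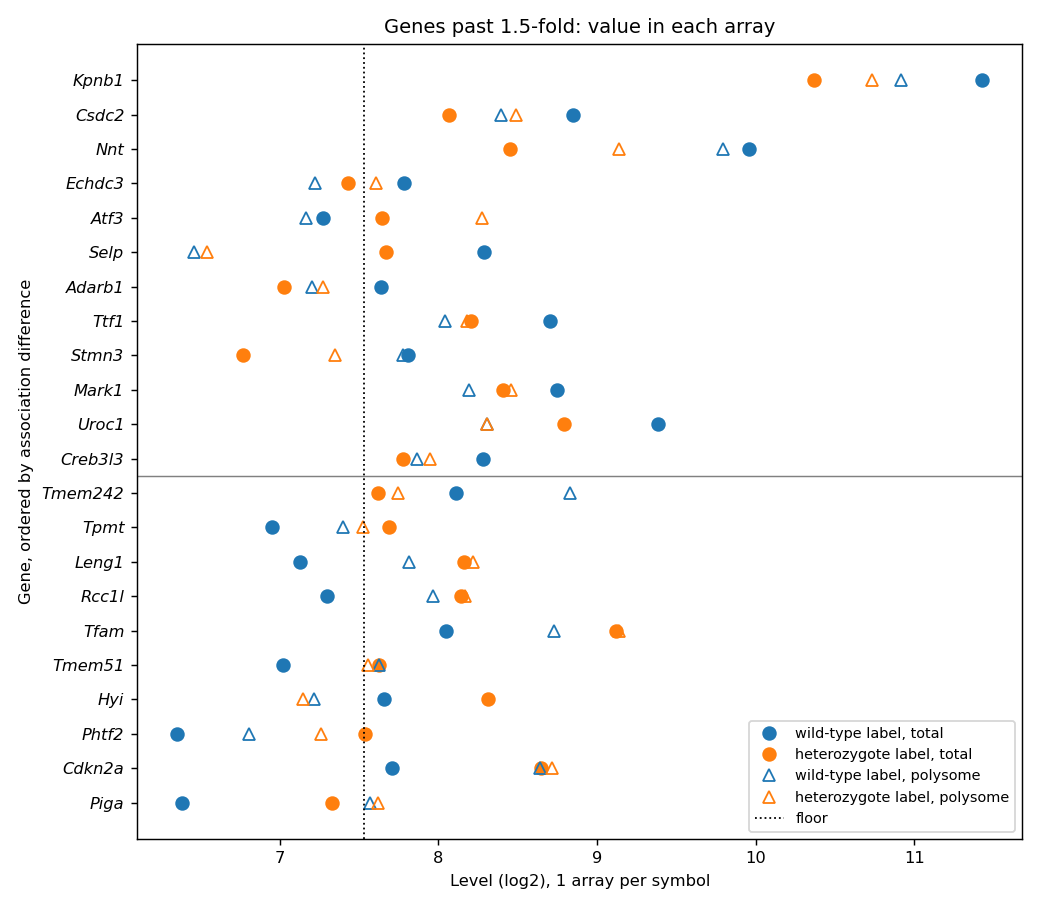
Level (log2, horizontal axis) of the 22 genes past 1.5-fold in each array, 1 symbol per array, ordered by association difference with the higher genes above the line. Filled circles are total RNA and open triangles polysome RNA. The filled blue circle (wild-type total) is the highest of the 4 in 11 of 12 higher genes and the lowest in 8 of 10 lower genes. The genes were called on these same values, so the counts are a description.

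How the 4 arrays lay in the called genes is a description, because the calls were made on the same values. The difference between genotype labels was larger in total than in polysome RNA in 19 of the 22 genes (86.4%), against 68.4% of all genes. The wild-type total array was farthest from the others in 16 of 22 (72.7%), against 44.6% of all genes. Every association difference contains the values of all 4 arrays, so calling on size favours genes in which any of them lies apart. The part of the wild-type total array in the result was not tested. Of the 22 genes, 12 had an array below the floor. Of the 12 higher genes, 5 were read from probe sets marked as able to match other sequences (_x_at), against 3.94% of all genes. These 5 were Kpnb1, Csdc2, Nnt, Stmn3 and Mark1. Just inside the threshold lay Creb3l3 and Uroc1 at 0.59, Tmem242 at -0.59 and Tpmt at -0.61, and just outside it H2-Ea at 0.58, Myo10 at 0.57, Tmem62 at -0.58 and Rpl14 at -0.57.

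Probe sets of a gene are read from the same RNA and array, so their agreement measures the array and not the cells. Of 2700 genes with at least 2 probe sets at the floor, 1662 (61.6%) had the same sign at the brightest and the second. The difference between those probe sets had an SD of 0.22, where the brightest alone had 0.16 and the second alone 0.19. A difference of 2 weakly related readings spreads more than either reading. Across genes Pearson's r was 0.218 and Spearman's rho 0.209. Among 87 of these genes past 0.32 lower, the second probe set was below 0 in 71 (81.6%) and past 0.32 in 15 (17.2%), with a median of -0.18 where the brightest had -0.37. Among 47 genes past 0.32 higher, it was above 0 in 27 (57.4%) and past 0.32 in 7 (14.9%), with a median of 0.04 where the brightest had 0.42. These sign shares have unlike baselines, because 67.1% of all genes lay below 0 and 32.9% above it. That lean below 0 also enters the 61.6%. A single probe set was a weak guide to the size at another. Of the 22 genes past 1.5-fold, 18 had a single probe set at the floor and could not be checked in this way.

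**Figure D3:**
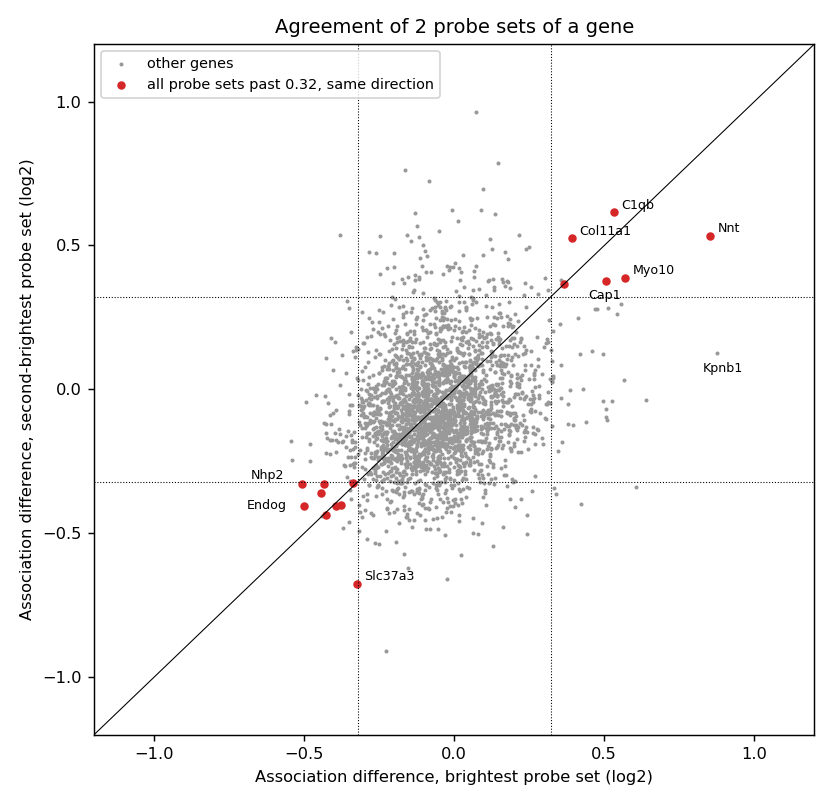
Association difference (log2) at the second-brightest probe set (vertical axis) against the brightest (horizontal axis) for 2700 genes, with the line of equality and dotted lines at 0.32 either way. The 15 genes whose probe sets all passed 0.32 in the same direction (red) lie in opposite corners, 6 higher and 9 lower, and the rest form a round cloud.

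In 15 genes every probe set at the floor passed 0.32 in the same direction, 6 higher and 9 lower. They were singled out by this agreement after their values were seen, so their agreement is a description. On the higher side, besides Nnt, were a pair of cytoskeletal genes. Myo10, the myosin of filopodia, read 9.35 and 8.52 in the wild-type and heterozygote total arrays and 9.14 and 8.88 in the polysome arrays, and its probe sets gave 0.57 and 0.39. Cap1, an actin-binding cyclase-associated protein, read 12.39 and 12.24 in total RNA and 9.20 and 9.56 in polysomes, and gave 0.51 and 0.38. Cap1 signal was much lower in polysomes than in total RNA under both labels, by a polysome minus total difference of -3.19 under the wild-type and -2.68 under the heterozygote label. Its start sequence above opens with a C and a run of pyrimidines.

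Col11a1, a fibrillar collagen chain of cartilage, read 11.39 and 10.01 in the wild-type and heterozygote total arrays and 11.81 and 10.82 in the polysome arrays, and gave 0.39 and 0.53. Pnrc2, a factor in mRNA decapping, read 9.47, 8.94, 9.80 and 9.63 and gave 0.37 at both probe sets. Both were lower under the heterozygote label in each fraction, less so in polysomes. C1qb, a chain of the complement component made by macrophages, read 5.98 and 6.06 in total RNA and 8.42 and 9.03 in polysomes, and gave 0.53 and 0.61. Its total arrays lay below the floor, so its polysome minus total differences of 2.44 and 2.97 rest on total values that low. Its supporting probe set read 5.52, 5.68, 7.27 and 8.05 and so reached the floor only in the heterozygote polysome array, where it is high. The 17 other macrophage markers on the array, C1qb left out, had a summed linear signal of 1519 in the wild-type total, 1929 in the heterozygote total, 3945 in the wild-type polysome and 5495 in the heterozygote polysome array. The 10 macrophage markers at the floor, C1qb included, had association differences from -0.41 to 0.53 with a median of -0.05, and the part of such cells in the value of C1qb was not tested.

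Nhp2 led the lower side of these genes. It encodes a core protein of the H/ACA ribonucleoprotein and is itself a dyskeratosis congenita gene. It read 10.39 in the wild-type total array, 10.87 in the heterozygote total array, 10.77 in the wild-type polysome array and 10.74 in the heterozygote polysome array, and its probe sets gave -0.51 and -0.33. Under the wild-type label it was higher in polysomes than in total RNA by 0.39, and under the heterozygote label the difference was -0.12. Its dimmer probe set showed no difference between labels of that size in total RNA, at 9.80 and 9.88, and a lower heterozygote value in polysomes, at 10.15 and 9.89. The probe sets thus placed the difference in different fractions.

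A pair of lower genes act in cell death. Endog, a mitochondrial nuclease, read 7.39 and 7.96 in the wild-type and heterozygote total arrays and 7.52 and 7.59 in the polysome arrays, and gave -0.50 and -0.40. Its wild-type arrays lay below the floor, and its other probe set reached the floor only in the heterozygote polysome array, at 7.62. Bak1, a pore-forming activator of apoptosis, read 9.88, 10.23, 10.06 and 10.07 and gave -0.34 and -0.32. In both, the heterozygote label was higher in total RNA and nearly level in polysomes. Protein turnover was represented by Psmd13, a subunit of the proteasome lid, at 10.08, 10.54, 10.41 and 10.43 with -0.44 and -0.36, and by Rnf121, a ubiquitin ligase, at 8.47, 8.77, 8.73 and 8.59 with -0.43 and -0.33.

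Rnaseh2c, a subunit of the enzyme that cuts RNA in RNA-DNA hybrids, had 3 probe sets at -0.39, -0.41 and -0.39. Its brightest read 9.82 in the wild-type total, 10.30 in the heterozygote total, 9.95 in the wild-type polysome and 10.04 in the heterozygote polysome array. Adi1, an enzyme of methionine salvage, gave -0.38 and -0.40, the secreted protein gene Nell2 gave -0.43 and -0.44, and Slc37a3 gave -0.33 and -0.67. At its brightest probe set Nell2 lay below the floor in both polysome arrays, at 6.97 under the wild-type and 7.40 under the heterozygote label. In all 9 lower genes the genotype difference was larger in total than in polysome RNA at the brightest probe set, and the wild-type total array was farthest from the others in 6. In the 6 higher genes that array was farthest in 0. Probe sets below the floor were not counted, and those of Adi1 and Myo10 gave 0.01 and 0.05.

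**Figure D4:**
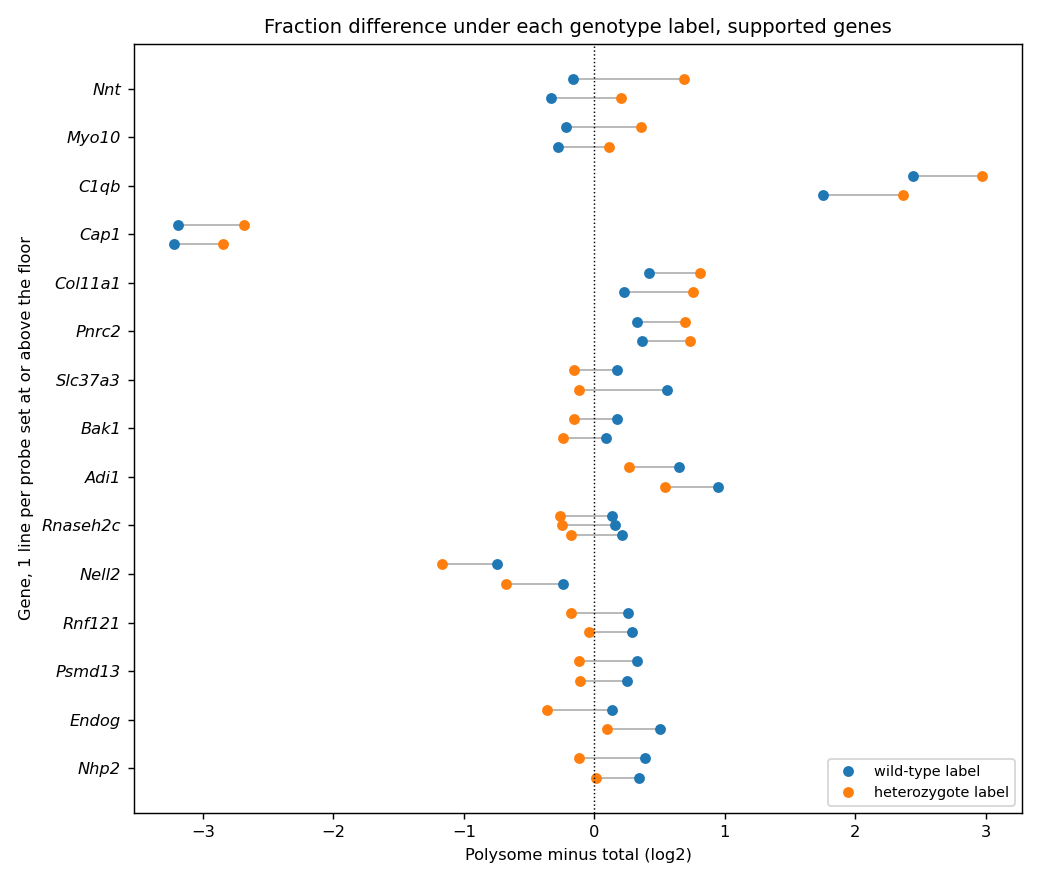
Polysome minus total difference (log2, horizontal axis) under the wild-type label (blue) and the heterozygote label (orange) for the 15 genes supported by every probe set, 1 line per probe set at or above the floor. Cap1 lies near -3 and C1qb above 1.7 under both labels; for 6 genes the orange point lies to the right and for 9 to the left.

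Gene lists drawn from the biology of ribosomes, the nucleolus and fibroblasts were described by counts and medians beside the median of -0.07 over all genes. Over all genes 2.09% were past 0.32 higher and 5.06% lower, and every count of list members past 0.32 stands beside these shares. Components of the translation machinery lay close to the all-gene median. Of 22 small-subunit ribosomal protein genes, 0 passed 0.32 and the median was -0.08, on the other side of the all-gene median at the second-brightest probe sets and without _x_at and _s_at probe sets. Of 23 large-subunit genes, Rpl14 at -0.57 and Rpl12 at 0.39 passed 0.32, and the median was -0.03. Rpl14 read 7.89 and 8.24 in the wild-type and heterozygote total arrays and 8.32 and 8.10 in the polysome arrays, whereas Rpl12 read 8.42, 6.57, 8.20 and 6.74, low under the heterozygote label in both fractions. Each has a single probe set at the floor. The 16 other mRNAs known for a TOP start had a median of -0.07, with 0 past 0.32.

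The start motif was searched as a C followed by 4 or more pyrimidines on the transcribed strand, from the first annotated base only. It is held by 823 of 32851 annotated starts (2.51%), by 5 of 19 small-subunit genes (26.3%) and by 4 of 21 large-subunit genes (19.05%). The 184 measured genes with the motif had a median association difference of -0.08 and the 5680 without it -0.07. The 9 ribosomal protein genes with the motif ranged from -0.57 for Rpl14 to -0.03, with -0.18 for Rps18, -0.11 for Rpl35, -0.09 for Rpl38 and -0.04 for Rps6. Cap1, which holds the motif, lay at 0.51 and Nhp2, which does not, at -0.51. Other genes with agreeing probe sets and no motif lay on both sides, such as Myo10 at 0.57 and Endog at -0.50. The pair of Cap1 and Nhp2 therefore gives the motif no direction. Annotated starts can lie off the base at which a cell begins an mRNA, so a missing motif says only that these letters are not at the annotated start.

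Translation factors, 50 genes at the floor, had a median of -0.06. Denr, which helps ribosomes reinitiate, gave -0.34, and Eif4g2, an initiation scaffold used without the cap-binding protein, gave 0.41 at its brightest probe set, 0.25 at the second and -0.06 at the third. Of 37 mRNAs with upstream reading frames or of the ATF4 response, 0 passed 0.32, and the median was -0.06. Impaired use of internal ribosome entry sites has been studied in dyskeratosis congenita models, so mRNAs reported to hold such sites were listed as well. Of 36, 3 were past 0.32 higher (8.33%, against 2.09% of all genes) and 1 lower (2.78%, against 5.06%), and the median was -0.04. Hoxa3 gave 0.55 and 0.30 at its probe sets, Mycn 0.42, Eif4g2 0.41 as above and Cryab -0.41. Some others were chosen by name and not by size. Xiap, an inhibitor of caspases, gave 0.21, Bcl2 gave 0.23 and the cell cycle inhibitor Cdkn1b gave -0.10. Bcl2l1 gave 0.09, with a probe set of opposite sign. At the brightest probe set none of these passed 0.32. The medians of all the lists of ribosomal proteins, TOP mRNAs, translation factors, upstream frames and internal entry changed sides of the all-gene median in at least 1 alternative.

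The proteins that guide ribosomal RNA modification lay on either side of the median. The 12 box C/D genes had a median of -0.16 and 8 of them lay below the all-gene median. Fbl, the 2′-O-methyltransferase fibrillarin, read 10.90 and 11.49 in the wild-type and heterozygote total arrays and 11.27 and 11.47 in the polysome arrays, and gave -0.39, with -0.18 at its other probe set. Nop58, a core partner of fibrillarin, read 9.98, 10.33, 10.28 and 10.32 and gave -0.31. In both genes the polysome arrays of the labels were closer than the total arrays. The 12 H/ACA and telomerase genes had a median of -0.01, with Nhp2 the one member past 0.32 (8.33% lower, against 5.06% of all genes). The next in size were the shelterin genes Terf2ip at 0.22 and Tinf2 at 0.21. The side of that list changed with the mean of all probe sets, the second-brightest probe sets and a floor at the 75th percentile.

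The list of Npm1, nucleolin and the p53 axis, 22 genes, had a median of -0.02. Cdkn2a at -0.85 was its one member past 1.5-fold and the one past 0.32 lower (4.55%, against 5.06% of all genes). The death receptor gene Fas at 0.34 and the p53 inhibitor gene Mdm4 at 0.32 were past 0.32 higher (9.09%, against 2.09%). Mdm4 read 6.43, 6.63, 7.07 and 7.59, so it reached the floor only in the heterozygote polysome array, and its other probe set, below the floor, gave -0.27. Ribosome biogenesis and RNA polymerase I genes, 81 in all, had a median of -0.09, with 2 past 0.32 higher (2.47%) and 5 lower (6.17%), near the 2.09% and 5.06% of all genes. Ttf1, whose probe sets disagree, is 1 of the 2. Nle1, a factor in large-subunit assembly, read 8.27 and 8.53 in the wild-type and heterozygote total arrays and 8.74 and 8.46 in the polysome arrays, and gave -0.54. Rpf1, also of large-subunit assembly, gave -0.47. Small nucleolar RNA host transcripts, 6 genes, had a median of -0.02. Gas5, a host that is quickly degraded when translated, was lower under the heterozygote label by a total RNA difference of -2.15 and a polysome difference of -2.52, and its association difference was -0.37 and 0.12 at its probe sets at the floor.

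Mitochondrial ribosomal protein genes lay furthest below the all-gene median of the lists described. Of 74 mitochondrial ribosomal protein genes, 63 were below it and 11 above, and their median was -0.19. Only 6 passed 0.32, all lower (8.11%, against 5.06% of all genes), so many of its genes lay lower by a small amount. Their median difference between genotype labels was 0.39 in total RNA and 0.19 in polysomes, and their median polysome minus total difference was 0.20 under the wild-type and 0.05 under the heterozygote label. Over all genes the same medians were 0.19 and 0.11 between genotype labels and 0.14 and 0.07 between fractions. Mrpl58, a peptidyl-tRNA hydrolase in the mitochondrial ribosome, read 9.62 and 10.25 in total and 9.85 and 10.09 in polysome RNA and gave -0.40. Mrpl47 read 8.31, 8.88, 8.45 and 8.63 and gave -0.39. In both, the wild-type total array was the lowest. Second probe sets, present for 22 of these genes, had a median of -0.15.

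Respiratory chain subunits, 68 genes, had a median of -0.14, with 53 below the all-gene median and 5 past 0.32, all lower (7.35%, near the 5.06% of all genes). Ndufb9, a subunit of complex I, read 11.42 and 11.88 in the wild-type and heterozygote total arrays and 11.73 and 11.79 in the polysome arrays, and gave -0.41, with -0.22 at another. Ndufa7, of the same complex, gave -0.37 at its brightest of 5 probe sets, and the other 4 ranged from -0.18 to -0.47. Its probe sets all had the same sign. Proteasome subunits, 40 genes, had a median of -0.15 with Psmd13 alone past 0.32, but the 16 second probe sets had a median of -0.07, above the median of -0.08 of second probe sets over all genes. DNA replication genes, 34 in all, had a median of -0.12. Rfc3 and Rfc5, subunits of the clamp loader, each gave -0.54, with -0.18 at the second probe set of Rfc3. Dut, the dUTPase, gave -0.51, with 0.09 at a probe set below the floor. The initiation factor gene Mcm10 gave 0.42, with 0.03 at a probe set below the floor. Mcm10 reached the floor only in the wild-type total array, where it is high. The mitochondrial, respiratory, box C/D and DNA replication medians kept their side of the all-gene median in the 9 alternatives that could change it, DNA replication by only -0.0035 at second probe sets. Centring the arrays moves all genes alike and cannot change a side.

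**Figure D5:**
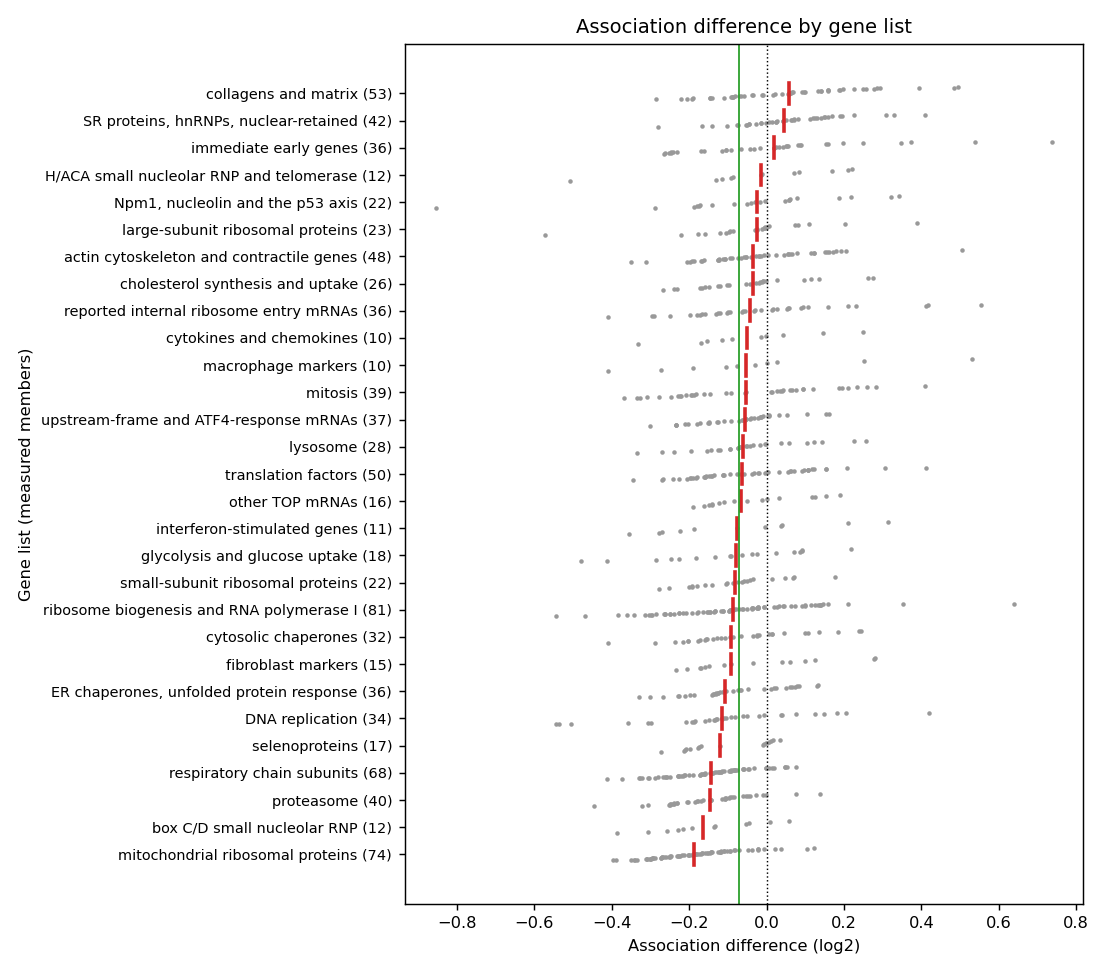
Association difference (log2, horizontal axis) of every gene at the floor in each list with at least 10 of them (grey points, number of genes in brackets), with the list's median (red bar) and the median of all genes at -0.07 (green line). Among the lists drawn, collagens and matrix lie furthest right, at 0.06, and mitochondrial ribosomal proteins furthest left, at -0.19; smaller lists, such as the 7 long non-coding RNAs at 0.17, are not drawn.

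Matrix genes, RNA-processing genes and nuclear RNAs lay above the all-gene median. Of 53 collagen and matrix genes, 39 were above it, with a median of 0.06 and 3 past 0.32, all higher (5.66%, against 2.09%). The list's median difference between genotype labels was -0.52 in total RNA and -0.52 in polysomes. Nid1, a linker of the basement membrane, read 12.48 and 11.18 in the wild-type and heterozygote total arrays and 12.28 and 11.47 in the polysome arrays, and gave 0.49, with 0.12 at its other probe set. Col12a1, a fibril-associated collagen, read 11.00, 9.39, 10.29 and 9.17 and gave 0.48. Both were lower under the heterozygote label in each fraction, less so in polysomes, as Col11a1 was.

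SR proteins, hnRNPs and nuclear-retained mRNAs, 42 genes that act mainly in splicing, had a median of 0.05, with 36 above the all-gene median. Srrm2, a large scaffold of splicing speckles, read 9.51 and 9.41 in the wild-type and heterozygote total arrays and 9.47 and 9.77 in the polysome arrays, and gave 0.41. Hnrnpf at 0.33 had a probe set of opposite sign. The 7 long non-coding RNAs at the floor had a median of 0.17. Neat1, the RNA of nuclear paraspeckles, read 11.00, 9.03, 10.53 and 8.96 and gave 0.40. Meg3, an imprinted RNA, read 12.61, 11.29, 12.50 and 11.54 and gave 0.36, with 0.38, 0.34 and 0.14 at its other probe sets at the floor. These RNAs are not translated, so their polysome array values measure RNA in the fraction and not translation.

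Immediate early genes, 36 at the floor, had a median of 0.02. Besides Atf3 at 0.74, 3 passed 0.32 higher: Fos at 0.54, Egr2 at 0.37 and Nr4a3 at 0.35, with 0 lower. With Atf3 these were 4 genes (11.1%, against 2.09% of all genes), and the 0 lower stand against 5.06%. Fos, a subunit of the AP-1 factor, read 8.29 and 9.43 in the wild-type and heterozygote total arrays and 8.06 and 9.74 in the polysome arrays. Egr2, a zinc finger transcription factor, read 7.17, 7.72, 7.24 and 8.16. Atf3 and Egr2 lay below the floor in both wild-type arrays and entered through the heterozygote label, under which they are high, so the count is no support for a direction of the list. Nr4a3, an orphan nuclear receptor, read 8.16, 7.59, 8.17 and 7.95 and was lower under the heterozygote label in both fractions. Fos, Egr2 and Atf3 were each higher under the heterozygote label in both fractions, and the heterozygote polysome array was the highest of the 4 in each. Each of the 4 genes had a single probe set at the floor. The matrix, splicing, long non-coding and immediate early medians also kept their side of the all-gene median in those 9 alternatives, and the fraction differences behind every list share the same 4 arrays.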

How the data were processed

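Affymetrix arrays measured total and ribosome-bound RNA, 1 array for each of 4 labels. The deposited values are on a log2 scale; per the submitters' processing notes the tools were affy 1.56.0, R 3.4.3 and RMA, and their settings and genome build are not given in the sources used here. The 22690 probe sets include 64 controls; 20380 have 1 gene symbol in the platform annotation, 691 several and 1555 none, and 20351 of the named ones matched RefSeq. Array medians were 7.47 to 7.59. Signal sets the precision; no depth applies.

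The association difference was computed with pandas 2.3.3, and the script was tested on simulated data. With 1 array per group there is no test: calls are 1.5-fold (0.58 log2) and a lower threshold of 0.32 log2. Named genes were the 12 largest each way past 1.5-fold without a probe set of opposite sign at the floor, any past 1.5-fold whose probe sets all passed 0.32, the 2 to 4 largest of each list described, and Npm1; others are said to be chosen otherwise. Members and lists were chosen with earlier results of these data known.

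Alternatives were other probe set choices, floors, scalings and thresholds. RefSeq starts matched 5864 genes (81.7%). Protein length was planned and not used here, and the 27 histone genes listed had 0 probe sets with 1 symbol.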

Additional observations from a re-analysis of the deposited data

Results flagged for a closer look

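In Kpnb1 and Csdc2 the polysome minus total difference was at least 0.32 log2 units in size under both genotype labels and ran in opposite directions. They were the only 2 of 7179 genes to do so. For Kpnb1, importin beta-1, it was -0.51 under the wild-type and 0.36 under the heterozygote label, an association difference of 0.88, and the dimmer probe sets gave 0.12, 0.08 and 0.10. For Csdc2, an RNA-binding protein gene, it was -0.45 and 0.42, also a difference of 0.88, with no other probe set at the floor. Both genes were read from _x_at probe sets, which are marked as able to match other sequences. The dimmer probe sets of Kpnb1 are not of that kind. The difference between labels was not tested, since each rests on 1 array per group.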

How the results depend on the processing

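No paired analysis was possible because each group has 1 array and the labels carry no replicate numbers. The count of 12 higher genes (0.167% of 7179) was 4 (0.0619% of 6462) when probe sets were averaged and 33 (0.266% of 12393) with no floor. It was 3 (0.075% of 3999) with the floor at the 75th percentile (9.33). After quantile normalisation it was 22 (0.306%), and after a loess trend was subtracted also 22 (0.306%). It was 0 at 2-fold and 150 (2.09%) at the threshold of 0.32. The count of 10 lower genes (0.139% of 7179) was 4 (0.148% of 2700) with the second-brightest probe set and 17 (0.137% of 12393) with no floor. It was 0 with the floor at the 75th percentile and 6 (0.0887% of 6768) with the mean level at the floor. It was 0 at 2-fold and 363 (5.06%) at 0.32. Relative to the median gene, an alternative added after the data were seen, the counts were 28 and 6; among genes past 0.32 the higher ones then made up 67.9%. At second-brightest probe sets 11 genes (0.407% of 2700) were called higher. Of the 12 higher genes 4 have such a probe set, and 0 of these 4 were called. None of the 10 lower genes has one, so these could not be checked. Mark1 turned to -0.34 with the second-brightest probe set and without _x_at and _s_at probe sets, and Ttf1 to -0.036 with the second-brightest. The cause was not tested. Other single-gene alternatives kept the direction, 263 within the SD of 0.22 between probe sets and 9 moved further, among them Kpnb1 at 0.12, Nnt at 0.53 and Uroc1 at 0.32. Of 302 list medians recomputed under alternatives that can change a side, 54 changed sides of the all-gene median, in 24 of 36 lists. Signal limits the dim genes most, and no alternative replaces a second culture.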

Other observations

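Some lists not described above held members past 0.32. Of 18 genes of glycolysis and glucose uptake, Ldhb, a lactate dehydrogenase subunit, gave -0.48 at its brightest probe set and -0.25, -0.31 and -0.15 at the others, and the glycolytic regulator gene Pfkfb3 gave -0.41. Ldhb read 9.77 and 10.41 in the wild-type and heterozygote total arrays and 9.79 and 9.95 in the polysome arrays. Of 39 mitosis genes, the kinetochore gene Cenpf gave 0.41, the mitotic kinase gene Plk1 gave -0.37, and Ccnb2 and Bub1 each gave -0.33. Cenpf reached the floor only in the wild-type total array, where it is high. The mitosis median was -0.05, and its side of the all-gene median held in 4 of the 9 alternatives that could change it. The 26 cholesterol genes, with a median of -0.04, had 0 members past 0.32, as did the 17 selenoprotein genes, with a median of -0.12.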
